A study of Mus musculus with 3 samples.

Results

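The interleukins are secreted signalling proteins that were first known from white blood cells, and each acts through a receptor built from chains that are often shared with other interleukins. The genes described here are every row of the expression tables whose symbol starts with Il followed directly by a digit, which gave 85 of the 21881 gene rows. They comprise 42 ligands, antagonists and soluble binding proteins, 42 receptor chains, and Il4i1, an amino acid oxidase named for its induction by interleukin-4. Interleukin genes of other symbols (such as Lif, Osm and Tslp) and receptor chains of other symbols (such as Osmr, Csf2rb and Crlf2) are outside this rule and are given only as partners below.

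The RNA came from whole skin of mice of the inbred strain FVB, collected on embryonic day 18.5 (E18.5), on postnatal day 3 (P3) or in adults of 10 weeks. The table headers call all 3 groups wild type (WT), and no treatment is given for any of them. The labels name neither the sex of the animals nor any pooling of them. The design speaks of 2 biological replicates per age, but the tables hold 1 averaged value per gene and age, so that no spread between animals, interval or p-value stands behind any value below. Values are FPKM, fragments scaled by transcript length and by the number of mapped fragments, and because they are per length they can be ordered between genes. Sequencing depth is unknown, and no precision can be given for low values.

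In skin, the interleukin-1 family is known as an alarm system of the epithelium. Keratinocytes, the cells of the epidermis, store IL-1 alpha, IL-18 and the IL-36 proteins, and a set of antagonists and decoy receptors holds their signalling in check. The IL-17 and IL-22 receptors are carried by keratinocytes and answer lymphocytes, while receptors of the common gamma chain and of IL-10 are known mainly from T cells, macrophages and other immune cells. A whole-skin library mixes all of these cells, so that fewer cells of a type and less RNA per cell cannot be told apart.

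Of the 85 genes, 52 had a value of at least 1 FPKM in some age group, and 33 had none. The 33 included 24 of the 42 ligands and binding proteins but 8 of the 42 receptor chains, the remaining one being Il4i1. The number of genes at 1 FPKM or more was 39, 38 and 50 at E18.5, P3 and 10 weeks, that is 45.9%, 44.7% and 58.8% of the 85 genes, where the share over all genes was 61.2%, 58.9% and 63.0%. The 52 genes are compared below by the difference of log2(FPKM + 1), and a difference of 1 or more in size, called 2-fold, counts as higher or lower. Over all genes that reached 1 FPKM, P3 over E18.5 gave 9.56% higher and 9.42% lower, 10 weeks over P3 gave 19.8% higher and 9.98% lower, and 10 weeks over E18.5 gave 16.1% higher and 6.92% lower. A gene is called highest or lowest at an age where it passes 2-fold against both other ages, and 5.35% of all genes were highest at P3 and 12.3% at 10 weeks. The scale understates the change of low genes, and 10 of the 52 genes were compared only because they reached 1 FPKM at 10 weeks.

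**Figure D1:**
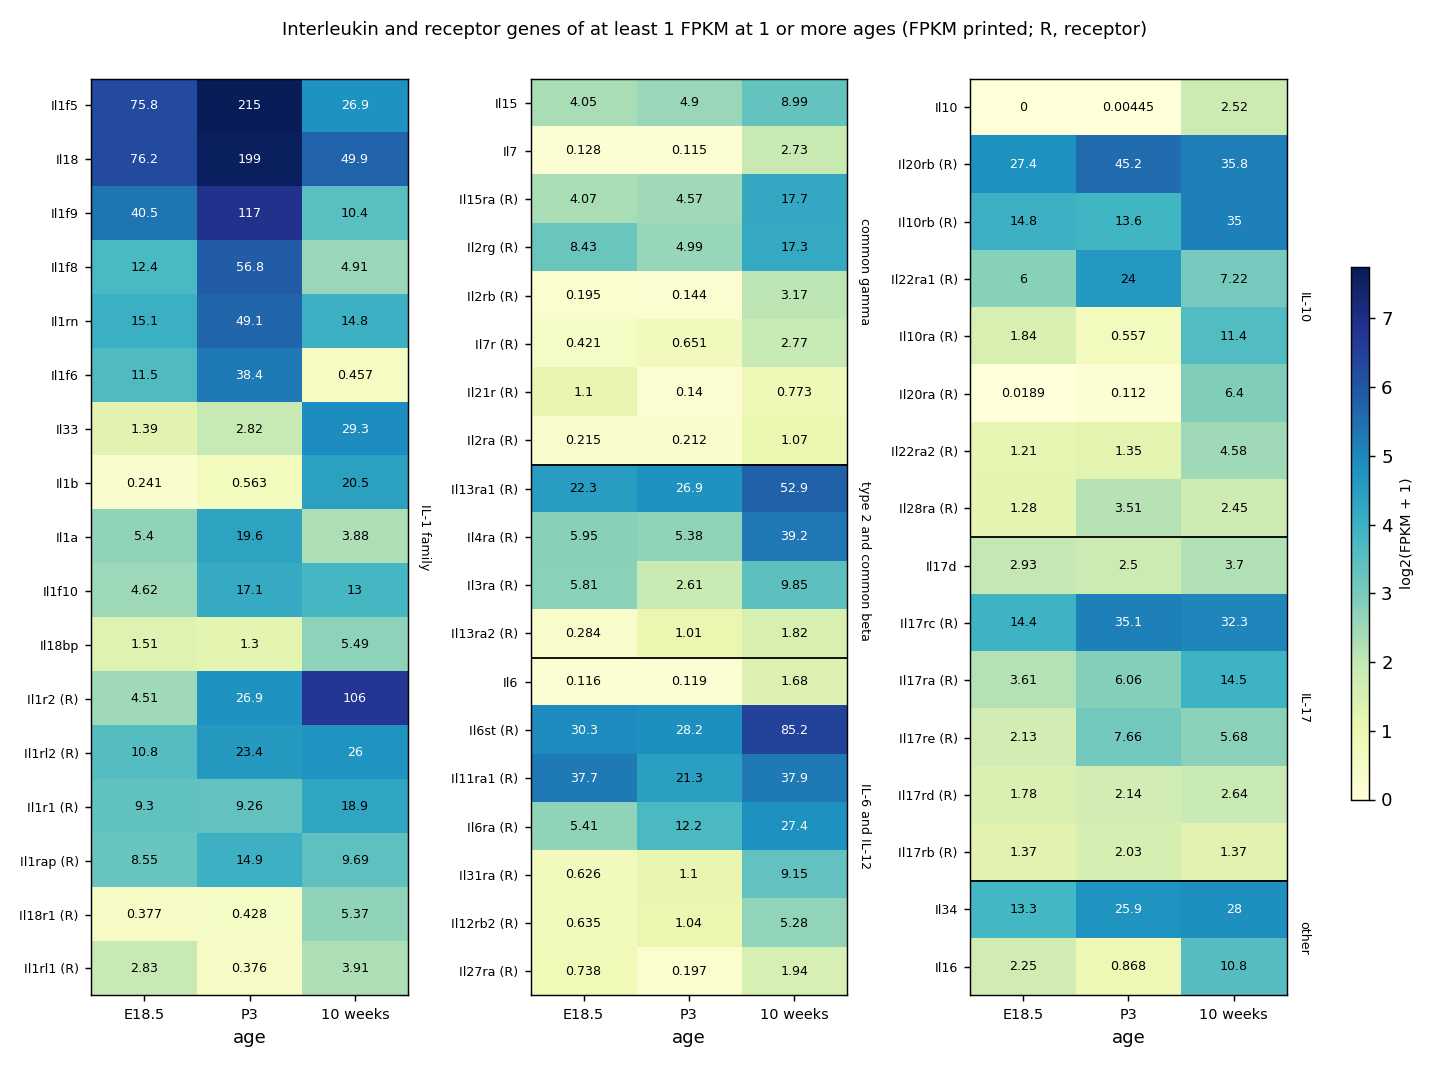
Level of each of the 52 genes that reached 1 FPKM, by age (columns) and family (panels and side labels), with ligands above receptors (R). The number in each field is the averaged FPKM value and the colour is log2(FPKM + 1). The dark block at P3 in the upper left holds Il1f5, Il18 and Il1f9. In the left and middle panels the right-hand column is the darkest for most receptors. In the right panel it is so for a part of them, and the P3 column is the darkest for others, such as Il20rb and Il22ra1.

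The IL-1 family held the most abundant interleukin transcripts of the skin at every age, and most of its ligands were highest at P3. On chromosome 2, 6 ligand and antagonist genes lie next to each other with no other gene row between them, from 24008692 to 24207011 in the build mm9, in the order Il1f8, Il1f9, Il1f6, Il1f5, Il1f10 and Il1rn. Il1f6, Il1f8 and Il1f9 encode the IL-36 agonists, Il1f5 encodes the IL-36 receptor antagonist, Il1f10 encodes IL-38, which is mostly described as an antagonist, and Il1rn encodes the IL-1 receptor antagonist. Il1b, whose gene lies elsewhere on chromosome 2, went the other way and was highest at 10 weeks. The promoters of Il1f8, Il1f9 and Il1f5, from the shared stretch, and of Il1b are therefore shown together. They are RefSeq sequences of the build GRCm38.p6, each from 250 bases before to 50 bases after the annotated start, written 5′ to 3′ on the gene's strand, with matches to the searched motifs in capitals.

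Il1f8: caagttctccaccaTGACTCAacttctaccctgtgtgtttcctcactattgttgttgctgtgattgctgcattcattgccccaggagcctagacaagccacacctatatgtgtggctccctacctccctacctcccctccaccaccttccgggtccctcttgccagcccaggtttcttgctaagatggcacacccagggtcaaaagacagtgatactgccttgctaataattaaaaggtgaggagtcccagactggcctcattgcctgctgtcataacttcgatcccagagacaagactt
Il1f9: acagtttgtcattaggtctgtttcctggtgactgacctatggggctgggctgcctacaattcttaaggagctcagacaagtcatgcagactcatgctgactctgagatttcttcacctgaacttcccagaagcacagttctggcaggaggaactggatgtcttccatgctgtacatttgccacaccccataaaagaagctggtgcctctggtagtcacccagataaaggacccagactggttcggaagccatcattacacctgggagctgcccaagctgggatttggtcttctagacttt
Il1f5: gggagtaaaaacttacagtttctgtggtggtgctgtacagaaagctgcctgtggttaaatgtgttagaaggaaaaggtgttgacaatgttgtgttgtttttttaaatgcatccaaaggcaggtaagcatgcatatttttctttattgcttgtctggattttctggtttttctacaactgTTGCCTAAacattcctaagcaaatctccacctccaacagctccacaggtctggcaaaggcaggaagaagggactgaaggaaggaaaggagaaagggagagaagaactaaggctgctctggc
Il1b: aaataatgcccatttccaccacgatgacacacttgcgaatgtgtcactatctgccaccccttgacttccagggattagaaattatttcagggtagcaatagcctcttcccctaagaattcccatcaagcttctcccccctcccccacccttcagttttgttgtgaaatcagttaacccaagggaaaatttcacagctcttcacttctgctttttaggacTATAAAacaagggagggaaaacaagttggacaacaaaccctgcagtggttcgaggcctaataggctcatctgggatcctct

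The Il1f8 promoter (chr2:24152922-24153221, plus strand) holds the letters of an AP-1 motif, TGANTCA, at position -236, counted so that -1 is the last base before the start. The Il1f5 promoter (chr2:24276704-24277003, plus strand), one of 2 listed for the gene, holds the letters of a C/EBP motif, TTGCNNAA, at position -71. The Il1b promoter (chr2:129371090-129371389, minus strand) holds a TATA box, TATAAA, at position -31, while the Il1f9 promoter (chr2:24186226-24186525, plus strand) holds none of these letters. Both strands were searched, the motifs were allowed to overlap, and N stands for any base. RefSeq promoters were found for 68 of the 85 genes, 83 promoters in all, and Il1f6 was among the genes not matched. The AP-1 letters were in 16.9% of these promoters and in 7.81% of all 32851 promoters of the same length, the C/EBP letters in 18.1% and 10.8%, and the TATA letters in 16.9% and 13.6%. A match is a string of letters in this window and shows no binding.

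The IL-36 ligands were abundant at P3 and low at 10 weeks. Il1f9, which encodes IL-36 gamma, had 40.5, 117 and 10.4 FPKM in skin of E18.5, P3 and 10 weeks. Il1f8, which encodes IL-36 beta, stood at 12.4, 56.8 and 4.91 FPKM at the same ages. Il1f6, which encodes IL-36 alpha, stood at 11.5, 38.4 and 0.457 FPKM. All 3 were 2-fold or more higher at P3 than at E18.5, by 1.5 to 2.1 on the log2 scale, and lower at 10 weeks than at P3 by differences of -3.29 (Il1f8), -3.36 (Il1f9) and -4.76 (Il1f6). The last of these was the largest difference in size among the 52 genes in that comparison. At 10 weeks they were also below their E18.5 levels, with differences from -1.18 for Il1f8 to -3.10 for Il1f6.

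The antagonists next to them moved with the agonists at P3. Il1f5 stood at 75.8, 215 and 26.9 FPKM at E18.5, P3 and 10 weeks, with differences of 1.49 for P3 over E18.5 and -2.95 for 10 weeks over P3. At P3 it was the most abundant of the 85 genes, at the 98.3 percentile of all gene rows. Il1rn stood at 15.1, 49.1 and 14.8 FPKM at E18.5, P3 and 10 weeks, so that its level at 10 weeks was close to that at E18.5, with a difference of -0.03. Il1f10 stood at 4.62, 17.1 and 13.0 FPKM, and was the 1 gene of the chromosome 2 stretch that was not 2-fold lower at 10 weeks than at P3, with a difference of -0.37.

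**Figure D2:**
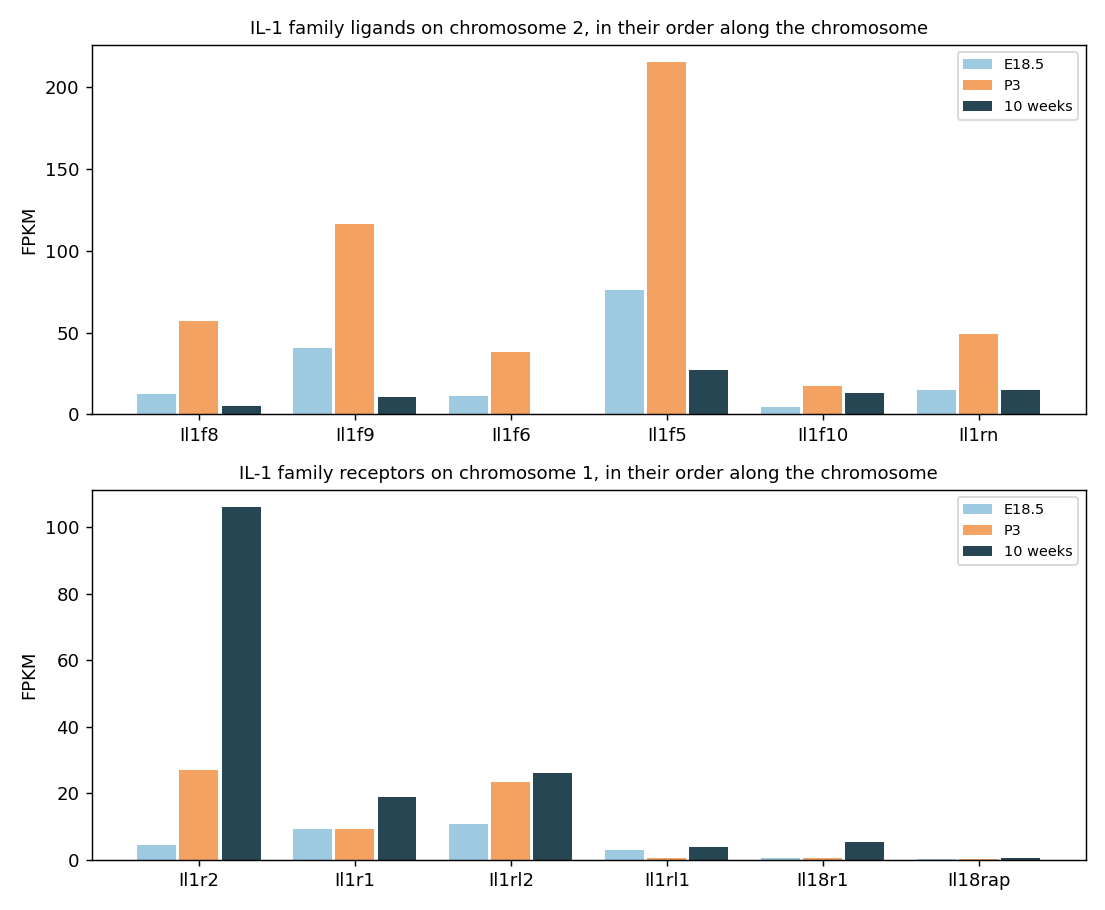
FPKM of the 6 neighbouring IL-1 family ligand and antagonist genes on chromosome 2 (upper panel) and the 6 neighbouring receptor genes on chromosome 1 (lower panel), in chromosome order, with 1 bar per age and no error because each age has 1 averaged value. In the upper panel the P3 bar is the tallest of each gene, up to 215 FPKM for Il1f5, and in the lower panel the 10 week bar is, up to 106 FPKM for Il1r2.

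The remaining IL-1 family ligands split into genes highest at P3 and genes highest at 10 weeks. Il18, whose product awaits cleavage by caspase-1, stood at 76.2, 199 and 49.9 FPKM at E18.5, P3 and 10 weeks, and Il1a, which encodes the alarm cytokine IL-1 alpha, stood at 5.40, 19.6 and 3.88 FPKM. Both were 2-fold or more higher for P3 over E18.5, by 1.38 and 1.69, and lower at 10 weeks than at P3, with differences of -1.98 and -2.08. Il1b, which encodes IL-1 beta, another substrate of caspase-1, stood at 0.241, 0.563 and 20.5 FPKM, a difference of 3.78 for 10 weeks over P3. Il33, a nuclear alarmin that acts through the receptor ST2, stood at 1.39, 2.82 and 29.3 FPKM, a difference of 2.99. Il18bp, the secreted protein that binds IL-18, stood at 1.51, 1.30 and 5.49 FPKM, a difference of 1.5. The Il1b row overlaps Gm14047 at 0.0700, 0.253 and 0.830 FPKM, and without a stated strand setting their reads cannot be told apart.

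In counts, 5 of the 7 IL-1 family ligands were 2-fold higher for P3 over E18.5, where 9.56% of all genes were. None was lower, and the median difference was 1.5. At 10 weeks the same number, 5 of 7, was lower than at P3, where 9.98% of all genes were. Il1b and Il33 were higher at 10 weeks. These counts did not move under other scalings of the ages. Both comparisons share the P3 value, so that a high P3 value enters each.

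Most of the listed markers of keratinocytes moved with the P3 maximum. The summed FPKM of the 6 markers Krt5, Krt14, Krt15, Trp63, Lor and Ivl was 3299, 11590 and 2923 at E18.5, P3 and 10 weeks. Of these 6, 4 were 2-fold higher for P3 over E18.5 and 4 were lower at 10 weeks than at P3. Lor, a protein of the outermost epidermal layers, stood at 641, 5378 and 403 FPKM, and the basal keratin gene Krt5 at 1058, 2638 and 816 FPKM. Krt15 had its highest value at 10 weeks instead, at 488, 726 and 969 FPKM. Whether the epidermal share of the tissue takes part in the levels of the IL-1 family ligands was not tested.

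The receptors of the family followed another course than the ligands. Of the 9 receptor genes, 6 lie side by side on chromosome 1, from 40141613 to 40606142 in mm9, in the order Il1r2, Il1r1, Il1rl2, Il1rl1, Il18r1 and Il18rap. Il1r2, the decoy receptor that takes up IL-1 without signalling, stood at 4.51, 26.9 and 106 FPKM at E18.5, P3 and 10 weeks, with differences of 2.34 for P3 over E18.5 and 1.94 for 10 weeks over P3. It was the most abundant of the 42 receptor chains at 10 weeks, at the 95.8 percentile of all gene rows. Il1r1, the signalling receptor for IL-1, stood at 9.30, 9.26 and 18.9 FPKM and stayed just under the 2-fold line, with a difference of 0.95 for 10 weeks over P3. Il1rap, the accessory chain that IL-1, IL-33 and IL-36 receptors share, stood at 8.55, 14.9 and 9.69 FPKM and passed no 2-fold line.

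The receptor chains for IL-36, IL-33 and IL-18 each had their own age course. Il1rl2, the IL-36 receptor, stood at 10.8, 23.4 and 26.0 FPKM, a difference of 1.05 for P3 over E18.5 that was under 1 with both other scalings. Its level at 10 weeks, when the IL-36 agonists were lowest, differed from that at P3 by 0.14. Il1rl1, which encodes the IL-33 receptor ST2, stood at 2.83, 0.376 and 3.91 FPKM and was the 1 gene of the 52 that was lower at P3 than at E18.5, with a difference of -1.48, a call lost with a pseudocount of 5. It was also the 1 gene that was lowest at P3 against both other ages, a pattern held by 5.54% of all genes. That count depends on the setting and was 6 with a pseudocount of 0.1, 0 with a pseudocount of 5 or a minimum of 5 FPKM, 2 with the median of ratios and 3 with the upper quartile. Il18r1, the binding chain for IL-18, stood at 0.377, 0.428 and 5.37 FPKM, a difference of 2.16 for 10 weeks over P3, while its partner Il18rap stayed under 1 FPKM at 0.120, 0.144 and 0.611. Il1rapl1 and Il1rapl2, brain-expressed relatives on chromosome X, also stayed under 1 FPKM.

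Mast cell markers also had their lowest sum at P3, while between 10 weeks and E18.5 they differed among themselves, with 2 of 7 higher and 2 of 7 lower. Their summed FPKM over 7 genes was 875, 96.4 and 539 at E18.5, P3 and 10 weeks, with 4 of 7 lower at P3 than at E18.5 and 6 of 7 higher at 10 weeks than at P3. Cpa3, a mast cell carboxypeptidase, stood at 331, 23.1 and 148 FPKM, and Cma1, a mast cell chymase, at 404, 33.0 and 133 FPKM. Il3ra, the binding chain of the IL-3 receptor, also had its lowest value at P3, at 5.81, 2.61 and 9.85 FPKM. The summed markers of macrophages, fibroblasts, skeletal muscle, adipocytes and endothelium, given below, were lowest at P3 too. The part of mast cells in these values was not tested.

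Because FPKM is per length, the level of an inhibitor can be set against that of its agonist within each age. These pairs were chosen after the values had been seen and are a description. Il1rn over the sum of Il1a and Il1b was 2.67, 2.43 and 0.605 at E18.5, P3 and 10 weeks, so that transcripts of the antagonist outnumbered those of the IL-1 agonists at the early ages and not at 10 weeks. The decoy chain Il1r2 over the signalling chain Il1r1 was 0.485, 2.91 and 5.61, so that the decoy was the rarer of the pair at E18.5 and the more abundant at P3 and 10 weeks. Il1f5 over the sum of the IL-36 agonists stayed between 1.02 and 1.70, at 1.18, 1.02 and 1.70. The IL-36 agonists over their receptor Il1rl2 were at 5.97, 9.04 and 0.608. Il18bp over Il18 was 0.0198, 0.00652 and 0.110, so that transcripts of IL-18 outnumbered those of its binding protein at every age. Il1a over Il1b was 22.5, 34.9 and 0.189, so that the more abundant of the pair was Il1a at E18.5 and P3 and Il1b at 10 weeks.

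**Figure D3:**
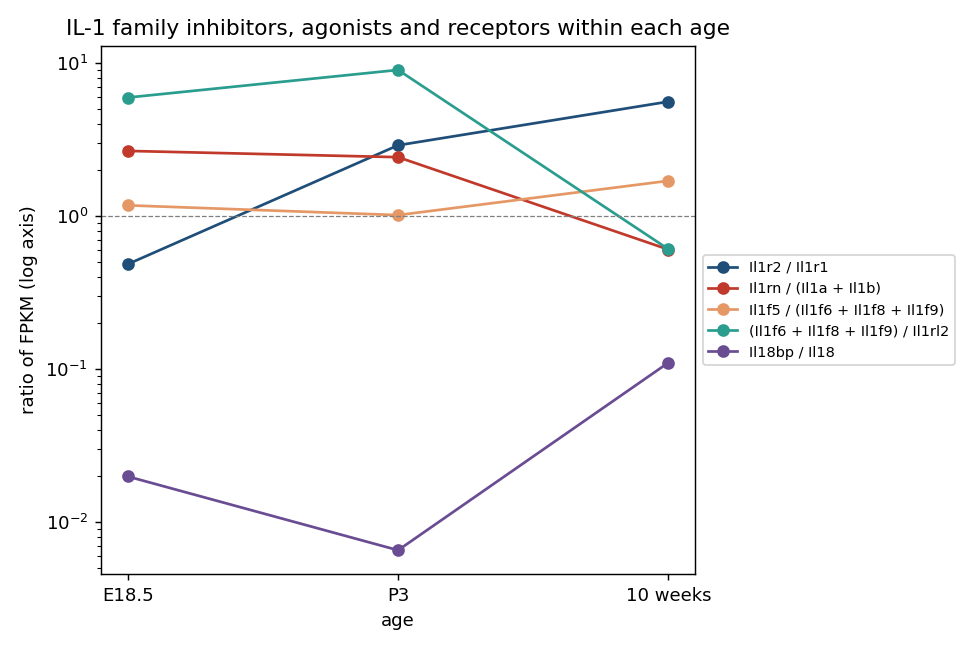
Ratio of FPKM between IL-1 family inhibitors, agonists and receptors within each age, on a log axis, with the dashed line at equal levels. Each point is 1 ratio of averaged values with no error. The line for Il1rn over the IL-1 agonists crosses below equality at 10 weeks (0.605), and that for Il1r2 over Il1r1 lies above it at P3 (2.91) and 10 weeks (5.61).

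Casp1, the protease that matures IL-1 beta and IL-18, stood at 27.2, 3.70 and 42.8 FPKM and was lowest at P3, the age at which Il18 was highest. It was 1 of 10 genes of IL-1 and IL-17 signalling that were listed alongside. Of these 10, P3 over E18.5 gave 1 higher and 1 lower gene, where 9.56% and 9.42% of all genes were. At 10 weeks, 3 were higher and 1 lower than at P3, where 19.8% and 9.98% of all genes were. Traf6, a ubiquitin ligase of both pathways, was the one higher for P3 over E18.5 and the one lower for 10 weeks over P3, at 11.6, 27.2 and 8.93 FPKM. Irak3, an inhibitory kinase of the pathway, stood at 2.19, 5.37 and 15.2 FPKM, and both it and Nfkbiz were 2-fold higher at 10 weeks than at P3. Nfkbiz, a nuclear factor induced by IL-1 and IL-17, stood at 2.41, 4.91 and 15.7 FPKM.

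Outside the IL-1 family the ligands were low and the receptors were not. The 31 other ligands summed to 24.9, 36.5 and 64.1 FPKM at E18.5, P3 and 10 weeks, and most of each sum was Il34 with Il15 and Il16. The 33 other receptor chains summed to 201, 253 and 474 FPKM. Of the 28 of these chains that reached 1 FPKM, 16 were 2-fold higher at 10 weeks than at P3 and 1 was lower. Over all genes, 19.8% were higher and 9.98% lower. Among the 16, Il2rb, Il7r, Il20ra and Il27ra reached 1 FPKM at 10 weeks alone and were compared only through that value. Of the same 28, 17 were higher at 10 weeks than at E18.5 and none was lower, where 16.1% and 6.92% of all genes were.

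**Figure D4:**
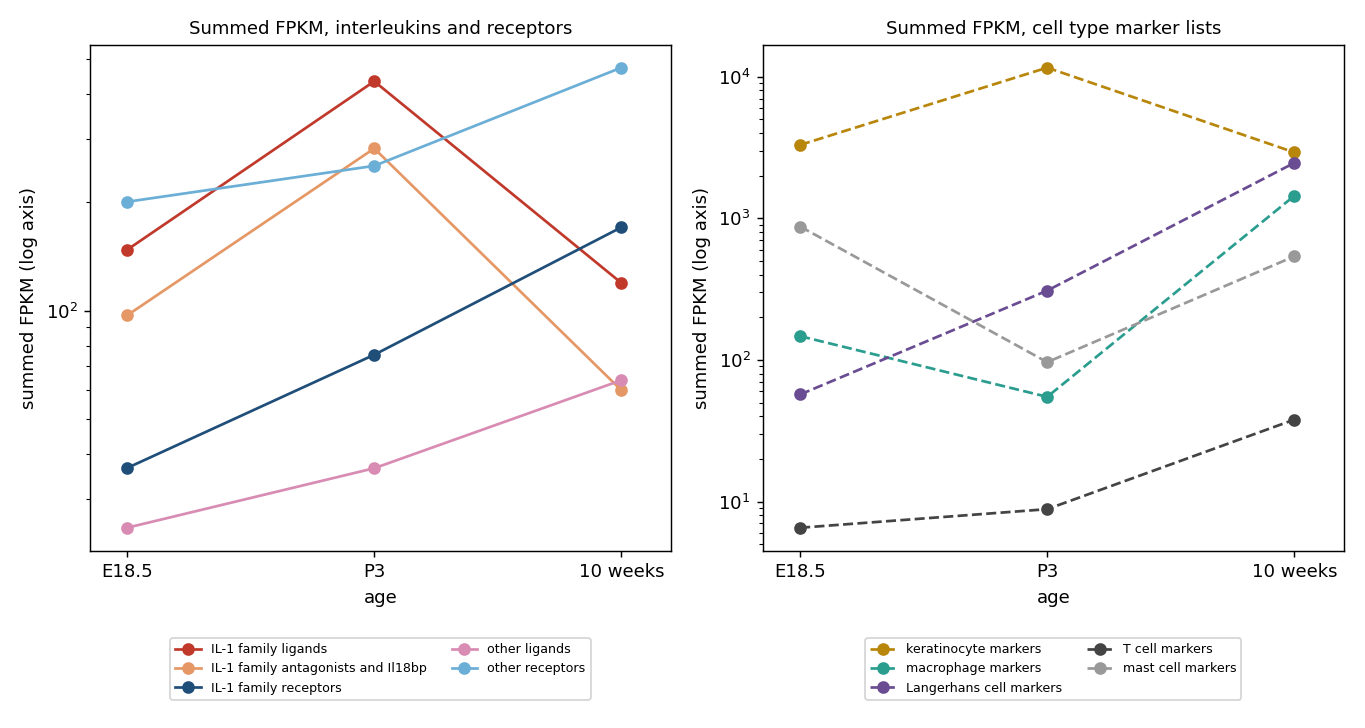
Summed FPKM by age of the IL-1 family ligands, antagonists and receptors and of all other ligands and receptors (left), and of 5 cell type marker lists (right), both on log axes that differ in range. Each point is a sum of averaged values with no error. The IL-1 family ligands (434 FPKM) and the keratinocyte markers (11590 FPKM) both have their highest sum at P3, while receptor sums and macrophage and Langerhans cell markers have theirs at 10 weeks.

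Among the common gamma chain cytokines, which support lymphocytes, Il15 was the highest ligand, and Il7 reached 1 FPKM at 10 weeks alone. Il15, a survival factor for killer and memory T cells, stood at 4.05, 4.90 and 8.99 FPKM and passed no 2-fold line. Il7, known as a product of keratinocytes that keeps skin T cells alive, stood at 0.128, 0.115 and 2.73 FPKM, a difference of 1.74 for 10 weeks over P3. Il2, Il9 and Il21, products of activated T cells, stayed under 1 FPKM at every age, with a highest value of 0.302 for Il2 at 10 weeks.

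Of their 6 receptor chains that reached 1 FPKM, 4 were 2-fold higher at 10 weeks than at P3 and none was lower. Over all genes, 19.8% were higher and 9.98% lower. Among the 4, Il2rb and Il7r reached 1 FPKM at 10 weeks alone. Il2rg, the common gamma chain itself, stood at 8.43, 4.99 and 17.3 FPKM, and Il15ra, which presents IL-15 to other cells, at 4.07, 4.57 and 17.7 FPKM. Il2rb, the beta chain that IL-2 and IL-15 share, stood at 0.195, 0.144 and 3.17 FPKM, and Il7r at 0.421, 0.651 and 2.77 FPKM. These 4 chains had differences of 1.19 to 1.87 for 10 weeks over P3, and no member of this family passed 2-fold between P3 and E18.5. Il2ra, the alpha chain found on regulatory T cells, stood at 0.215, 0.212 and 1.07 FPKM, and Il21r was the 1 gene above 1 FPKM only at E18.5, at 1.10, 0.140 and 0.773 FPKM. The IL-9 receptor gene Il9r stayed under 1 FPKM.

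The type 2 cytokine genes stayed under 1 FPKM at every age, whereas some of their receptor chains were abundant. Il3, Il4, Il5 and Il13 lie within 655 kb of chromosome 11. Il4 stood at 0.612, 0.0245 and 0.718 FPKM and Il13 at 0.227, 0.0166 and 0.826 FPKM, the last being the highest value among the 33 genes under 1 FPKM. Both had their lowest value at P3. The summed markers of mast cells, macrophages, fibroblasts, skeletal muscle, adipocytes and endothelium were also lowest at P3, and a link to any of them was not tested. Il4ra, the chain that IL-4 and IL-13 receptors share, stood at 5.95, 5.38 and 39.2 FPKM, a difference of 2.66 for 10 weeks over P3. Il13ra1, its partner in IL-13 binding, stood at 22.3, 26.9 and 52.9 FPKM, with differences of 0.95 for 10 weeks over P3 and 1.21 for 10 weeks over E18.5, the second of which was under 1 with both other scalings. Il13ra2, the decoy chain for IL-13, stood at 0.284, 1.01 and 1.82 FPKM, and Il5ra stayed under 1 FPKM.

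In the IL-6 and IL-12 group, the signal transducing chain was abundant at all ages. Il6st, which encodes gp130, the chain through which IL-6, IL-11 and several related cytokines signal, stood at 30.3, 28.2 and 85.2 FPKM, a difference of 1.56 for 10 weeks over P3. Il6ra, the binding chain for IL-6, was higher at each later age, at 5.41, 12.2 and 27.4 FPKM, though its difference of 1.04 for P3 over E18.5 was under 1 with both other scalings. Il6 itself stood at 0.116, 0.119 and 1.68 FPKM, a difference of 1.26 for 10 weeks over P3, and was the 1 of 7 ligands of the group that reached 1 FPKM. Il31ra, the receptor for the itch cytokine IL-31, stood at 0.626, 1.10 and 9.15 FPKM, a difference of 2.27, while Il31 stayed under 1 FPKM. Il12rb2, a chain of the IL-12 receptor, stood at 0.635, 1.04 and 5.28 FPKM, a difference of 1.62 for 10 weeks over P3, and Il27ra at 0.738, 0.197 and 1.94 FPKM. The Il27ra row overlaps Palm3, and its level is uncertain for that reason. The other genes of the group stayed under 1 FPKM, namely the ligands Il11, Il12a, Il12b, Il23a and Il27 and the chains Il12rb1 and Il23r, with a highest value of 0.792 FPKM for Il12a at 10 weeks.

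Il11ra1, the IL-11 receptor, had 37.7, 21.3 and 37.9 FPKM, which placed it first among the receptor chains at E18.5. Its row overlaps that of the skin chemokine gene Ccl27a, at 19.2, 40.1 and 79.6 FPKM, and the gene has a near-identical copy, Il11ra2, so that its level is uncertain. Il11ra2 was at 0.0864 FPKM at E18.5 and listed at 0 at P3 and at 10 weeks. A further row joins Il11ra2 with Gm13305 and is not counted among the 85 genes.

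The IL-10 family was represented mainly by its receptors, and Il10 was its 1 ligand that reached 1 FPKM. Il20rb, a chain for IL-19, IL-20 and IL-24 that is known from keratinocytes, was the highest of the family at each age, at 27.4, 45.2 and 35.8 FPKM, and passed no 2-fold line. Il22ra1, the IL-22 receptor, stood at 6.0, 24.0 and 7.22 FPKM and was the 1 receptor chain that was 2-fold higher at P3 than at both other ages, with differences of 1.84 for P3 over E18.5 and -1.61 for 10 weeks over P3. Il20ra, the partner of Il20rb, stood at 0.0189, 0.112 and 6.40 FPKM, a difference of 2.74 for 10 weeks over P3. Il10ra, the binding chain for IL-10 known from macrophages and lymphocytes, stood at 1.84, 0.557 and 11.4 FPKM, a difference of 2.99, and the shared chain Il10rb at 14.8, 13.6 and 35.0 FPKM. Il22ra2, a soluble IL-22 binding protein counted here with the receptors, stood at 1.21, 1.35 and 4.58 FPKM, and Il28ra, the interferon lambda receptor, at 1.28, 3.51 and 2.45 FPKM.

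Il10, the anti-inflammatory ligand of the family, was listed at 0 at E18.5 and had 0.00445 FPKM at P3 and 2.52 FPKM at 10 weeks, a difference of 1.81 for 10 weeks over P3. It lies at the end of a stretch of chromosome 1 with Il24, Il20 and Il19, from 132778651 to 132921547 in mm9, whose other 3 genes stayed under 1 FPKM. The highest of these values was 0.670 FPKM for Il19 at 10 weeks. Il22 and the interferon lambda genes Il28a and Il28b, which are near-identical copies of each other, also stayed under 1 FPKM at every age.

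The IL-17 family had 5 receptor chains above 1 FPKM at every age and 1 ligand, Il17d, that reached it. Il17rc, a chain of the receptor for IL-17A and IL-17F, stood at 14.4, 35.1 and 32.3 FPKM, and Il17re, the receptor for the epithelial cytokine IL-17C, at 2.13, 7.66 and 5.68 FPKM. These neighbours on chromosome 6 were 2-fold higher at P3 than at E18.5, by 1.23 and 1.47, and kept near that level at 10 weeks. Il17ra, the chain common to the family, was highest at 10 weeks, at 3.61, 6.06 and 14.5 FPKM, with a difference of 1.13 for 10 weeks over P3 that was under 1 with the upper quartile scaling. Il17rd and Il17rb passed no 2-fold line, with values between 1.37 and 2.64 FPKM. Il17d stood at 2.93, 2.50 and 3.70 FPKM, while Il17a, Il17b, Il17c, Il17f and Il25 stayed under 1 FPKM. Il17b stood at 0.234, 0.342 and 0.707 FPKM, and Il17a and Il17f were listed at 0 at E18.5 and 10 weeks.

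Of the ligands that belong to none of these families, Il34 and Il16 were well above 1 FPKM. Il34, a ligand of the receptor Csf1r that Langerhans cells need, stood at 13.3, 25.9 and 28.0 FPKM, with a difference of 1.02 for 10 weeks over E18.5 that was under 1 with both other scalings. Its receptor gene Csf1r stood at 19.6, 14.6 and 103 FPKM. Il16, a chemoattractant for cells that carry CD4, stood at 2.25, 0.868 and 10.8 FPKM, a difference of 2.66 for 10 weeks over P3. The enzyme gene Il4i1 was at most at 0.0215 FPKM, at P3. Its row overlaps that of Nup62-il4i1, at 1.11, 1.69 and 2.90 FPKM, and those of Atf5, Nup62 and Tbc1d17, so that its level is uncertain.

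Over all 52 genes, P3 over E18.5 gave 14 (26.9%) that were 2-fold higher and 1 (1.92%) lower, where 9.56% and 9.42% of all genes were. The median difference was 0.24, where the median over all genes compared was 0.03. Between 10 weeks and P3, 26 genes (50%) were higher and 8 (15.4%) lower, where 19.8% and 9.98% of all genes were. The median was 1.03, where the median over all genes was 0.14. Between 10 weeks and E18.5, 29 genes were higher and 4 lower, with a median of 1.12, where 16.1% of all genes were higher and 6.92% lower and the median was 0.22. Of the 37 genes that had at least 1 FPKM both at 10 weeks and at P3, 14 were higher at 10 weeks, that is 37.8%, where the share over all such genes was 15.7%. Of the 37 with at least 1 FPKM both at 10 weeks and at E18.5, 18 were higher at 10 weeks, where the share over all such genes was 13.5%.

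Against both other ages at once, 22 of the 52 genes were highest at 10 weeks, where 12.3% of all genes were, and 11 were so with a pseudocount of 5. They were 15 receptor chains, the binding protein Il18bp and the 6 ligands Il1b, Il33, Il6, Il7, Il10 and Il16. Of these genes, Il1b, Il6, Il7, Il10, Il18r1, Il20ra, Il2rb and Il7r reached 1 FPKM at 10 weeks alone. They were compared only through the age at which they were high. A further 8 genes were highest at P3, where 5.35% of all genes were, and 7 of these 8 are ligands or antagonists of the IL-1 family. None was highest at E18.5, where 2.91% of all genes were. Il1f5, Il1f6, Il1f8 and Il1f9 were lowest at 10 weeks, a pattern of 3.51% of all genes. Il1f10, Il1r2, Il1rl2, Il6ra, Il17rc and Il17re were lowest at E18.5, a pattern of 2.45% of all genes. This count of 6 became 2 with the median of ratios, 1 with the upper quartile and 1 with a pseudocount of 5.

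**Figure D5:**
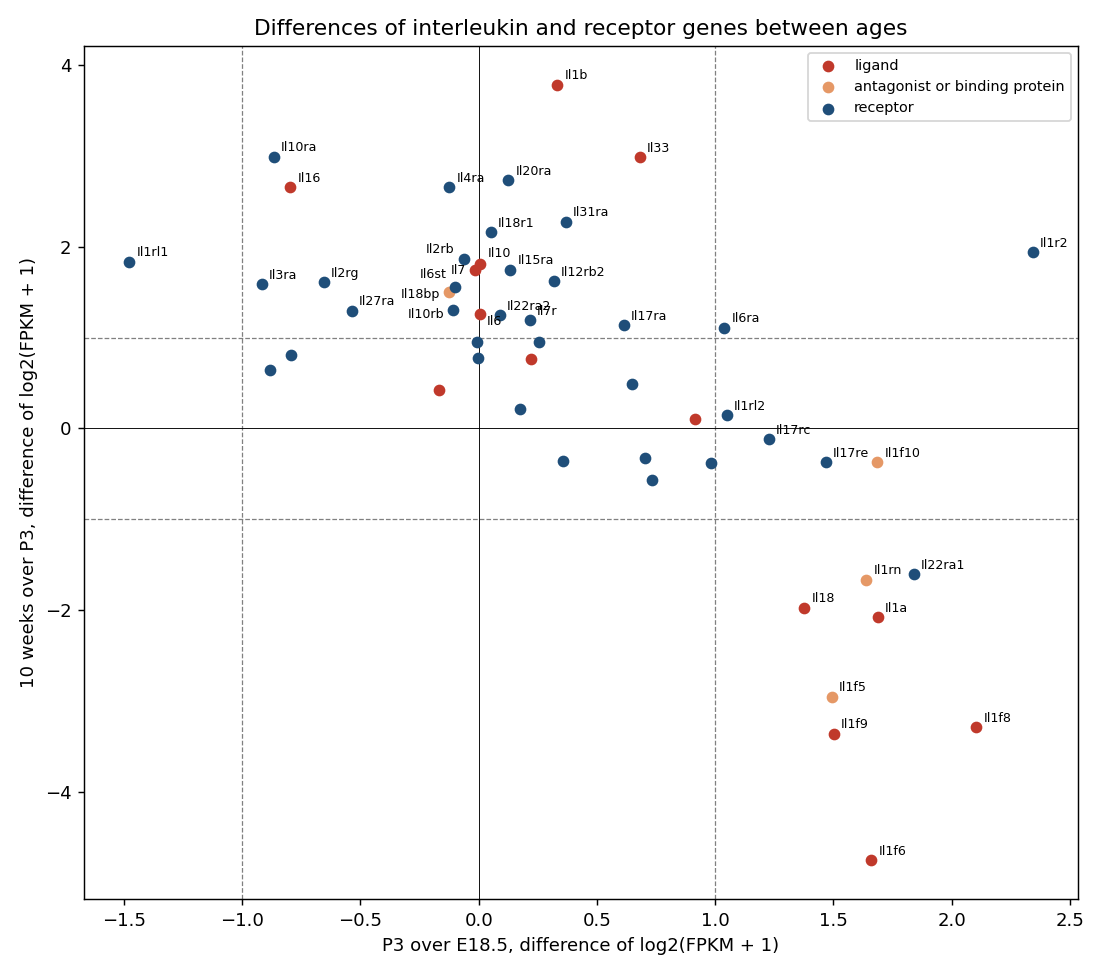
Difference of log2(FPKM + 1) of each of the 52 genes for P3 over E18.5 (horizontal) and for 10 weeks over P3 (vertical), coloured by role, with dashed lines at 2-fold and names on genes beyond a line. Both axes use the P3 value. The lower right holds Il22ra1 and 7 IL-1 family ligands and antagonists, the upper middle holds receptors with Il1b and Il33, and Il1rl1 stands alone at the left.

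Markers of macrophages, and most of those of antigen-presenting cells and T cells, moved with the higher receptor levels at 10 weeks. Only 1 marker of B cells and 3 of neutrophils could be compared, and the latter showed no common course. The summed FPKM of 7 macrophage markers was 147, 54.8 and 1441 at E18.5, P3 and 10 weeks, and 7 of 7 were higher at 10 weeks than at P3. That of 5 genes of Langerhans cells and other antigen-presenting cells was 57.0, 309 and 2462 FPKM, with Cd207, the defining gene of Langerhans cells, at 0.0146, 3.82 and 24.3 FPKM. Of these 5 genes, 4 were higher at 10 weeks than at P3, while Epcam stood at 32.1, 101 and 68.4 FPKM. The summed FPKM of 7 T cell markers was 6.53, 8.83 and 37.9. Of the 6 that could be compared, 4 were higher at 10 weeks than at P3, where 19.8% of all genes were. These 4, Cd3e, Cd3d, Cd3g and Cd2, reached 1 FPKM at 10 weeks alone and were compared only through that value. Cd247 and Lck, at 1 FPKM or more at every age, had differences of 0.44 and 0.04. B cell markers summed to 1.49, 0.684 and 1.63 FPKM, with the defining gene Pax5 listed at 0 at E18.5 and 10 weeks. The 1 compared, Cd79b, stood at 1.14, 0.265 and 1.46 FPKM, a difference of 0.96 for 10 weeks over P3. Neutrophil markers summed to 22.2, 3.28 and 2.79 FPKM. Of the 3 compared, 1 was higher and 1 lower at 10 weeks than at P3, where 19.8% and 9.98% of all genes were. The higher one, Ltf, stood at 0.368, 0.263 and 1.54 FPKM and was compared only through its value at 10 weeks. The lower one, Camp, stood at 19.8, 2.67 and 0.663 FPKM. The part of these cells in the receptor levels was not tested.

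Markers of other tissues differed between the ages too. Skeletal muscle markers summed to 3857, 320 and 16674 FPKM at E18.5, P3 and 10 weeks, and adipocyte markers to 5689, 1720 and 7660 FPKM. Fibroblast markers summed to 3142, 1144 and 3590 FPKM and endothelial markers to 139, 45.9 and 116 FPKM, each list with 5 of 5 genes lower at P3 than at E18.5. Xist stood at 0.0433, 64.6 and 73.0 FPKM and the Y-linked gene Eif2s3y at 42.1 and 0.0838 FPKM at E18.5 and P3 and was listed at 0 at 10 weeks, so that the sex of the animals and the step from E18.5 to later ages cannot be told apart. Of the 85 genes, 5 lie on chromosome X, and among these Il2rg, Il13ra1 and Il13ra2 were compared.

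Partner chains and ligands that do not carry an Il symbol were counted from a list. Of 14 partner receptors and ligands, 11 were higher at 10 weeks than at P3 and none was lower, where 19.8% and 9.98% of all genes were. Among the 11, Osm, Lif and Tslp reached 1 FPKM at 10 weeks alone and were compared only through that value. Of the 14, none was higher and 3 were lower at P3 than at E18.5, where 9.56% and 9.42% of all genes were. Tslp, an epithelial cytokine that drives type 2 immunity and shares Il7r with IL-7, stood at 0.794, 0.394 and 5.93 FPKM. Csf1, the other ligand of Csf1r, stood at 9.02, 4.23 and 45.2 FPKM. Csf2rb2, the beta chain that in the mouse pairs with Il3ra alone, stood at 3.55, 1.12 and 8.0 FPKM. It is a close copy of the common beta chain Csf2rb, and how shared reads were divided between them is not given in the sources used here.

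Of 14 JAK, STAT and SOCS genes that reached 1 FPKM, 8 were higher at 10 weeks than at P3 and none was lower. Over all genes, 19.8% were higher and 9.98% lower. At P3, 2 were lower and none higher than at E18.5, where 9.42% and 9.56% of all genes were. Socs3, a feedback inhibitor of gp130 signalling, stood at 3.52, 3.91 and 35.8 FPKM, a difference of 2.91 for 10 weeks over P3. Jak3, the kinase bound by the common gamma chain, stood at 4.99, 1.79 and 8.29 FPKM. Socs2, an inhibitor of growth hormone signalling, stood at 8.77, 3.28 and 17.7 FPKM. Stat4 stayed under 1 FPKM.

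The counts depend in part on how the ages are scaled. Scaling by the median of ratios moved the log2 ratios of FPKM between ages by -0.12 for P3 over E18.5, -0.10 for 10 weeks over P3 and -0.22 for 10 weeks over E18.5, and scaling by the upper quartile moved them by -0.21, -0.20 and -0.41. The split for P3 over E18.5, 14 higher and 1 lower, became 12 and 2 with the median of ratios and 12 and 3 with the upper quartile. Of the 34 receptor chains compared, 20 were higher at 10 weeks than at E18.5, 15 with the median of ratios and 14 with the upper quartile, and none was lower under any of these. With a pseudocount of 5 in place of 1, which shrinks differences of low genes, 11 of the 34 were higher at 10 weeks than at E18.5. For 10 weeks over P3, 19 of the 34 were higher, and 9 with a pseudocount of 5.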

How the data were processed

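Each deposited table gives a single FPKM value per gene, an average per the file headers. Libraries came from 1 ug of Trizol RNA and a TruSeq kit, per the labels' protocols. TopHat2 2.0.7, Cufflinks 2.1.1 and the build mm9 are named in the submitters' processing notes. Annotation, strand setting and read numbers were not given in the sources used here. Depth is unknown. As FPKM is relative to the library, a change in abundant genes shifts the rest.

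Rows of the 3 tables were joined by identifier. Of all values, 10 were failed estimates listed at 0 and were left out, none of them among the 85 genes. Differences of log2(FPKM + 1) were taken between ages for 14662 genes of at least 1 FPKM at 1 or more ages, and 1 or more in size counted as 2-fold. A gene was highest or lowest at an age where it passed 2-fold against both others. No test was possible, as each age has 1 value. The calling steps were run on simulated data with little noise and planted changes beyond the 2-fold line in abundant genes. The recovery of these changes was fixed by that setting, so the run checks the code alone. It says nothing on the precision of the values or on low genes. All 85 genes are accounted for: those called or highest in their family are given at all ages, others by range, and listed genes by size of change, up to 4 a list. Table starts count from 0, so 1 was added to each. The 85 genes and all lists were chosen with earlier results of these data known. Alternatives were pseudocounts of 0.1 and 5, no minimum or 5 FPKM, and median of ratios or upper quartile scaling. Further alternatives left out genes with a value whose status was not OK, or genes of chromosomes X and Y. Python 3.11.15, pandas 2.3.3 and numpy 2.4.6 were used.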

Additional observations from a re-analysis of the deposited data

How the results depend on the processing

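No paired analysis was possible because each age has 1 averaged value, and for the same reason no replicate could be left out. No called difference changed direction under any of the alternatives, and only the scalings could have changed one. The count of genes lower at P3 than at E18.5, which was 1, became 6 with a pseudocount of 0.1, 0 with a pseudocount of 5 and 0 with a minimum of 5 FPKM. It became 2 with the median of ratios and 3 with the upper quartile. With a pseudocount of 5, the count for 10 weeks over P3 became 20 in all, against 34, and 12 higher, against 26, and the count for 10 weeks over E18.5 became 17 in all, against 33, and 14 higher, against 29. A pseudocount of 5 shrinks differences between low values by its construction, and the calls lost were 14 for 10 weeks over P3, such as Il6, Il7, Il10 and Il18r1, and 16 for 10 weeks over E18.5. Scaling ended 2 calls for P3 over E18.5, Il1rl2 and Il6ra, under both scalings. The upper quartile ended 2 calls for 10 weeks over P3, Il6ra and Il17ra, and 8 for 10 weeks over E18.5, among them Il10rb, Il13ra1, Il13ra2, Il17rc and Il34. Of the genes compared, 4, 6 and 0 values at E18.5, P3 and 10 weeks had a status that was not OK. When genes with such a value were left out, 28 of the 34 calls for 10 weeks over P3 remained. For 10 weeks over E18.5, 28 of the 33 remained. The remaining calls could not change, because their values stayed the same. Depth is unknown, and the levels of Il11ra1, Il1b, Il27ra, Il4i1, Il28a and Il28b are uncertain because of overlapping or near-identical genes.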
